A study of Homo sapiens with 12 samples.

Results

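The response to USP51 overexpression was compared between 2 human colorectal cancer cell lines, SW480 and HCT116. For each gene the response in a line was the log2 ratio of the mean TPM with USP51 to the mean TPM with the control vector, with 1 added to both. TPM is a read count corrected for transcript length and rescaled to a fixed total. The quantity described throughout is the line difference, the HCT116 response minus the SW480 response, so a positive value means that a gene stood higher, relative to its own control, in HCT116. A gene entered when it reached 1 TPM in at least 1 group of each line. Of the 17818 genes of the table, 11333 did so, against 12176 measured in SW480 and 12394 in HCT116. KLHDC9, at 2.05 and 1.93 TPM in SW480 and 1 and 0.303 TPM in HCT116, lay just inside this limit, and SP9, at 1.35, 1.78, 0.997 and 0.81 TPM in the same order, lay just outside.

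The 12 libraries formed 4 groups of 3: SW480 with the control vector (NC), SW480 with USP51, HCT116 with the control vector and HCT116 with USP51. Both lines were grown in serum-containing DMEM, and the labels give no further treatment and no word on whether the engineered cells are clones or pools. Only the 4 means that the authors deposited, 1 per group, entered the analysis, so no value has a standard deviation or a p-value. Each group's total lay between 15506686 and 15920306 mean counts. Calls here are therefore calls of size, not tests. Keratin and adhesion genes of epithelium were high (EPCAM 382 to 411 TPM, KRT8 2904 to 4756 TPM over the 4 groups), while only 6 of 16 colon epithelium markers were measured in both lines. CDX2, a transcription factor of intestinal identity, lay between 10.4 and 29.1 TPM.

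USP51 is a deubiquitinase, an enzyme that takes ubiquitin off other proteins, and is known as an enzyme acting on ubiquitinated histone H2A. Cells sense low oxygen through HIF1, a transcription factor whose HIF1A subunit is marked for destruction by prolyl hydroxylases such as EGLN3 and by ubiquitination. HIF1 binds short DNA motifs near its target genes, among them CA9, VEGFA and many genes of glucose use. SW480 and HCT116 both carry an activated WNT pathway.

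USP51 itself (chromosome X, 55484616 to 55489848, GRCh38.p14) was the check of the reading of the groups. Its mean TPM was 0.513 in SW480 controls and 25.7 with USP51, and it was listed at 0 in HCT116 controls and stood at 40.8 with USP51. In counts per total count the SW480 group with USP51 was 51.3-fold above its control. In HCT116 it was at least 580-fold higher, computed against a floor of 3 counts for the control mean. The line difference of 1.25 for USP51 depends on the added 1 TPM (3.28 with 0.1 added) and is no bound.

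Across genes the responses of the lines did not run in parallel. The median response was -0.04 in SW480 and 0.03 in HCT116, and Spearman's rho between the responses was -0.07 over 11333 genes, a description, since genes are not independent. Genes at least 1.5-fold higher with USP51 numbered 42 in SW480 and 172 in HCT116, and genes at least 1.5-fold lower numbered 69 and 10. The line difference had a median of 0.08, with 5% of genes below -0.26 and 5% above 0.54, and 65.0% of genes lay above 0. A line difference of at least 1, that is 2-fold, was found for 67 genes in the positive direction, or 0.591% of those measured, and for 7 in the negative direction, or 0.0618%. At a size of 1.5-fold the counts were 448 (3.95%) and 52 (0.459%). On counts divided by their totals alone the median line difference was 0.01 and the 1.5-fold counts were 383 and 67. On FPKM the median was also 0.01. With edgeR's RLE scaling factors on counts the median line difference shifted by -0.10 from that on TPM and the 1.5-fold counts were 331 and 85. The direction of small differences is therefore relative to the unit and the scaling.

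In most of the 67 genes HCT116 carried the difference. Of these, 43 were past 1.5-fold in HCT116 alone, 13 were past 1.5-fold lower in SW480 alone, 6 were past 1.5-fold in opposite directions and 3 were past it in neither line. The other 2, USP51 and SULT1A4, were past it in the same direction in both lines. Among the 7 negative genes these classes held 2, 3, 2, 0 and 0. Both lines were past 1.5-fold higher with USP51 in 5 genes: CA9, CDKN1C, EGLN3, OLFM1 and USP51. Of all 11333 genes, 42 were past this size in SW480 and 172 in HCT116. EGLN3 was just past it in SW480, with a response of 0.5875. CA9, a carbonic anhydrase and a standard hypoxia marker, stood at 2.78 TPM in SW480 controls, 9.497 with USP51, 2.17 in HCT116 controls and 6.38 with USP51. Its line difference was -0.26, and the counting interval of the ratio of its HCT116 to its SW480 count ratio, 0.455 to 1.504, spanned 1. EGLN3, a HIF prolyl hydroxylase, stood at 8.54, 13.3, 4.54 and 8.44 TPM in the same order, with a line difference of 0.18 and an interval of 0.848 to 1.53. Here and below, each interval is an exact 95% interval that takes a group's mean for a single library's count, so it reflects counting error and not the spread between cultures.

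The largest positive differences included genes with opposite responses in the lines. Control levels are part of the line difference, so they are given as levels only. NGFR, the low-affinity neurotrophin receptor (chromosome 17, 49495293 to 49515008), stood at 161 TPM in SW480 controls and 86.2 with USP51, and at 6.28 TPM in HCT116 controls and 14.04 with USP51. The responses were -0.90 and 1.05, the line difference 1.94, and the ratio of count ratios 3.98 (3.35 to 4.75). NGFR thus stood lower with USP51 in SW480 and higher in HCT116, and SW480 remained above HCT116 in both states. TNNC1, a troponin subunit, had the same pattern, at 38.1 and 24.4 TPM in SW480 and 15.7 and 33.1 TPM in HCT116. There the order of the lines turned, since HCT116 with USP51 lay above SW480 with USP51. The other genes past 1.5-fold lower in SW480 and higher in HCT116 were HEG1, MIA, HLA-DRA and HLA-DRB1. For MIA, with 5.67 and 9.67 mean counts in HCT116, the interval of the ratio of count ratios, 0.9097 to 9.44, spanned 1. For HEG1, a transmembrane protein known from heart and vessel development, the line difference of 1.39 was 1.45 on its predicted transcripts and 0.13 on the curated ones, which held at most 1.17 TPM.

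A second set differed mainly through HCT116. SPARC, a secreted matrix protein, stood at 4.51 and 3.35 TPM in SW480 against 0.497 and 3.4 TPM in HCT116, so HCT116 with USP51 reached the SW480 level. Its ratio of count ratios was 8.501 (4.75 to 16), from 16.7 mean counts in the HCT116 controls. TGM2, a transglutaminase that cross-links proteins, stood at 754 and 594 TPM in SW480 against 6.28 and 15.4 TPM in HCT116, a line difference of 1.51 (1.07 on curated transcripts). PRF1, which encodes perforin, was nearly level in SW480, at 183 and 175 TPM, and stood at 6.21 and 16.8 TPM in HCT116. AFAP1L2, an adaptor of SRC signalling, stood at 46.5 and 42.5 TPM in SW480 against 0.647 and 2.91 TPM in HCT116. In both PRF1 and AFAP1L2, HCT116 with USP51 stayed far below SW480. SPARC and AFAP1L2 reached 1 TPM in HCT116 only with USP51, so they entered through the group where they were higher. KLF2, a zinc finger transcription factor, was higher in HCT116 in both states, with 11.9 and 8.02 TPM in SW480 against 26.3 and 48.9 TPM in HCT116. PADI3, a peptidylarginine deiminase, differed more through SW480, at 5.68 and 2.23 TPM against 1.23 and 1.95 TPM in HCT116. SUSD2, a membrane protein named after its values were seen, had the highest line difference of all, 2.06, with 1.64 and 1.31 TPM in SW480 and 5.32 and 22.0 TPM in HCT116.

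**Figure D1:**
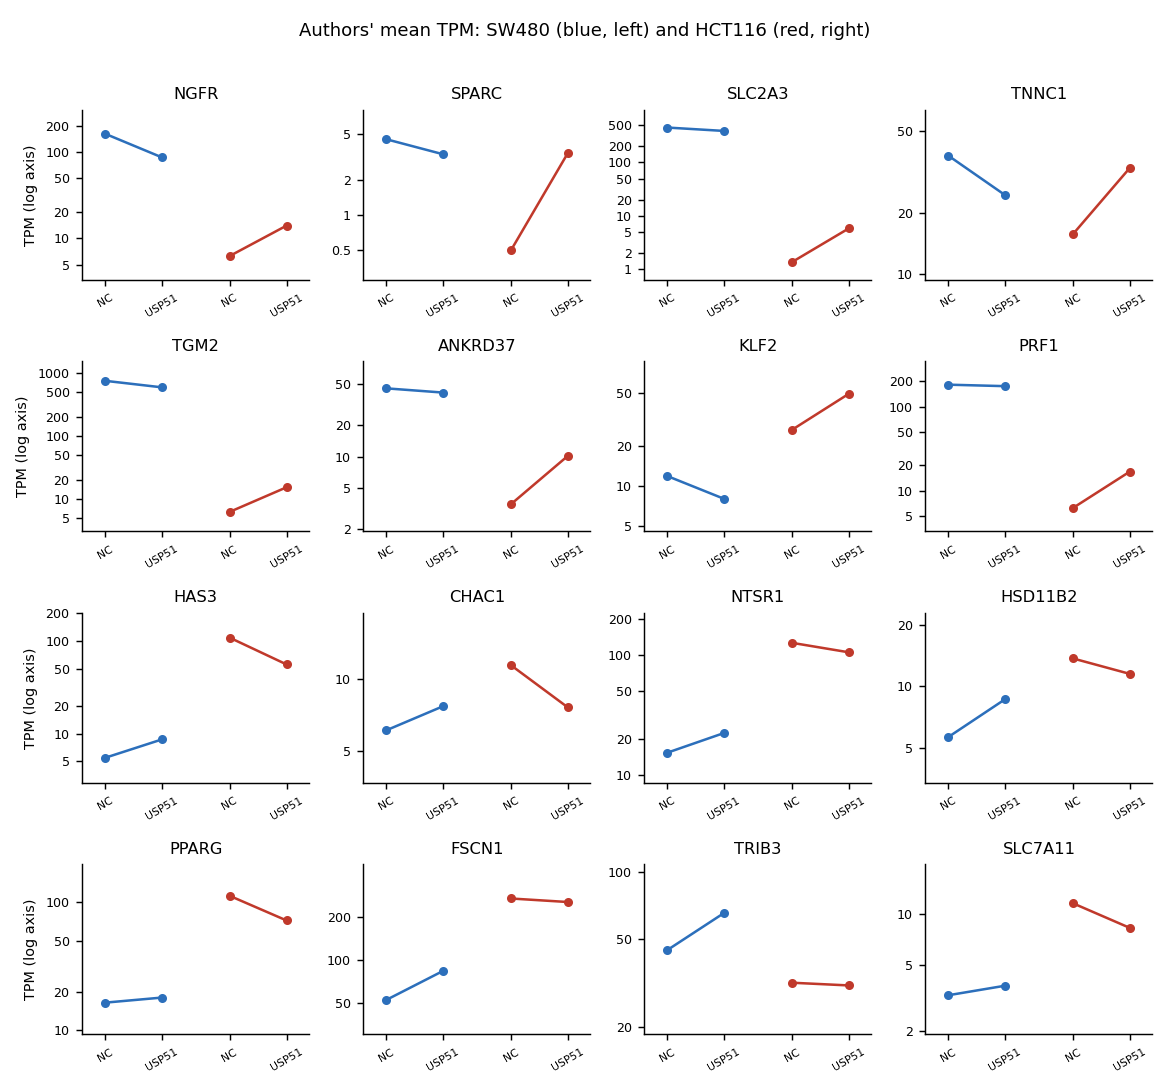
Authors' mean TPM (log axis, scaled per gene) with the control vector (NC) and with USP51 in SW480 (blue) and HCT116 (red) for 16 genes, 1 point per group mean, no error available. The upper 8 genes have positive line differences, from PRF1 at 1.36 to NGFR at 1.94, and the lower 8 negative ones, from TRIB3 and SLC7A11 at -0.59 to HAS3 at -1.52.

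Hypoxia targets as a list had a line difference well above that of all genes. The median response of the 29 measured members was 0.03 in SW480 and 0.47 in HCT116, and the median line difference 0.43 against 0.08 over all genes. Of the 29, 12 were at least 1.5-fold higher in HCT116 relative to SW480 and 0 lower, where 3.95% of all genes were higher. SLC2A3, the glucose transporter GLUT3 (chromosome 12, 7919230 to 7936187), stood at 449 and 388 TPM in SW480 against 1.37 and 5.82 TPM in HCT116. Its line difference was 1.74 and its ratio of count ratios 4.69 (3.44 to 6.51). ANKRD37, an ankyrin repeat protein, stood at 45.7 and 41.6 TPM in SW480 against 3.47 and 10.1 TPM in HCT116, a line difference of 1.45 (ratio 2.98, 1.67 to 5.5). The members had no common starting level: SLC2A3 and ANKRD37 were far lower in HCT116 controls than in SW480 controls, and others were about level.

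Among the latter, named after their values were seen, were mitophagy, collagen and chromatin genes. BNIP3L, a mitophagy receptor, stood at 28.3 and 30.2 TPM in SW480 against 33.6 and 62.8 TPM in HCT116. P4HA1, a collagen prolyl hydroxylase, stood at 17.7 and 21.1 TPM against 20.9 and 42.7 TPM. KDM3A, a histone demethylase, stood at 20.2 and 20.4 TPM against 20.9 and 35.4 TPM. In all 3 genes the controls of the lines were within 1.5-fold of each other and the HCT116 response exceeded the SW480 response by 0.73 to 0.80. PFKFB4, which sets the level of a glycolysis activator, stood at 8.74 and 8.92 TPM in SW480 against 13.7 and 25.7 TPM in HCT116.

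A different set of hypoxia targets did not share this. VEGFA, the main angiogenic growth factor, stood at 16.1 and 22.6 TPM in SW480 and 36.6 and 44.8 TPM in HCT116, higher with USP51 in both, with a line difference of -0.18 (ratio 0.829, 0.716 to 0.9597). PLIN2, a lipid droplet protein, and PFKFB3 were also on the negative side, at -0.48 and -0.26. ADM, which encodes adrenomedullin, was nearly level in both lines (0.03 and -0.06). HIF1A mRNA stood at 81.5 and 72.9 TPM in SW480 and 85.03 and 84.1 TPM in HCT116, with an interval of the ratio of count ratios, 0.982 to 1.13, that spanned 1. In total 6 of the 29 members had a negative line difference.

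Promoters were examined because 12 hypoxia targets stood apart between the lines while CA9 did not, and HIF1 binds a known core motif. The promoter sequences, 250 bases before to 50 after the start, come from RefSeq (GRCh38.p14). The motif searched was ACGTG or GCGTG on either strand, and capitals mark its matches, as CACGT or CACGC where the match lies on the other strand. ANKRD37 and PFKFB4 differed between the lines, and CA9 was higher with USP51 in both.
ANKRD37 (chr4:185396591-185396890, plus strand): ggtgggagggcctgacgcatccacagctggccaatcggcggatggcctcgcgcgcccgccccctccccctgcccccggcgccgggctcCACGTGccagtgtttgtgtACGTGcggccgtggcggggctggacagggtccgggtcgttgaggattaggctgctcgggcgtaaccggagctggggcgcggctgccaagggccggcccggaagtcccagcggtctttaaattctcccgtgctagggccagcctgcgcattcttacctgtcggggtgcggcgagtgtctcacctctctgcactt
PFKFB4 (chr3:48556754-48557053, minus strand): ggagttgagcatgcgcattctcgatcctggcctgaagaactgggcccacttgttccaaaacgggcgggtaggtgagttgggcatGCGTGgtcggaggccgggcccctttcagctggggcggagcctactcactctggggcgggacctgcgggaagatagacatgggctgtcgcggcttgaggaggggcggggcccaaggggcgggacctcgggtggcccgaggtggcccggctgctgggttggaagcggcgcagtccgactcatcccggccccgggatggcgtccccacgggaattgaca
CA9 (chr9:35673678-35673977, plus strand): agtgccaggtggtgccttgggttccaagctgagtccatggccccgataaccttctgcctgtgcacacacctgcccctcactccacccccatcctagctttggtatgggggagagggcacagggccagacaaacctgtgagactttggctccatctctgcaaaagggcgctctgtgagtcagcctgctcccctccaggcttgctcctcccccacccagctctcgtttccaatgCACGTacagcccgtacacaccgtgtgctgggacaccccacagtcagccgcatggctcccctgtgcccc
The ANKRD37 promoter held 3 matches, of which a pair overlaps in 1 palindrome CACGTG, which is also the E-box bound by MYC and USF proteins. PFKFB4 and CA9 held 1 match each. These promoters were chosen after values were seen, and a part of the motif in the line difference was not tested. The motif was in 27 of 31 promoters (87.1%) of measured hypoxia list members, some of which have more than 1 promoter in the table and some none. It was also in 61.8% of promoters of all genes measured in both lines and in 48.4% of all 35116 promoters, so a match alone says little.

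Glycolysis enzymes followed at a smaller size. The median line difference of the 18 measured enzymes was 0.18, with 16 above 0, but only 2 were past 1.5-fold (background 3.95%). ENO2, an enolase, stood at 67.9 and 58.04 TPM in SW480 and 36.8 and 71.2 TPM in HCT116, a line difference of 1.16 (ratio 2.15, 1.91 to 2.42). HK1, a hexokinase, was level in SW480, at 58.2 and 58.7 TPM, and stood at 41.4 and 65.5 TPM in HCT116. ALDOC, an aldolase, was higher with USP51 in both lines, by 0.35 in SW480 and 0.91 in HCT116. GAPDH, in contrast, had a line difference of -0.07. With TMM factors the median of the list was 0.07 and that of all genes -0.02.

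**Figure D2:**
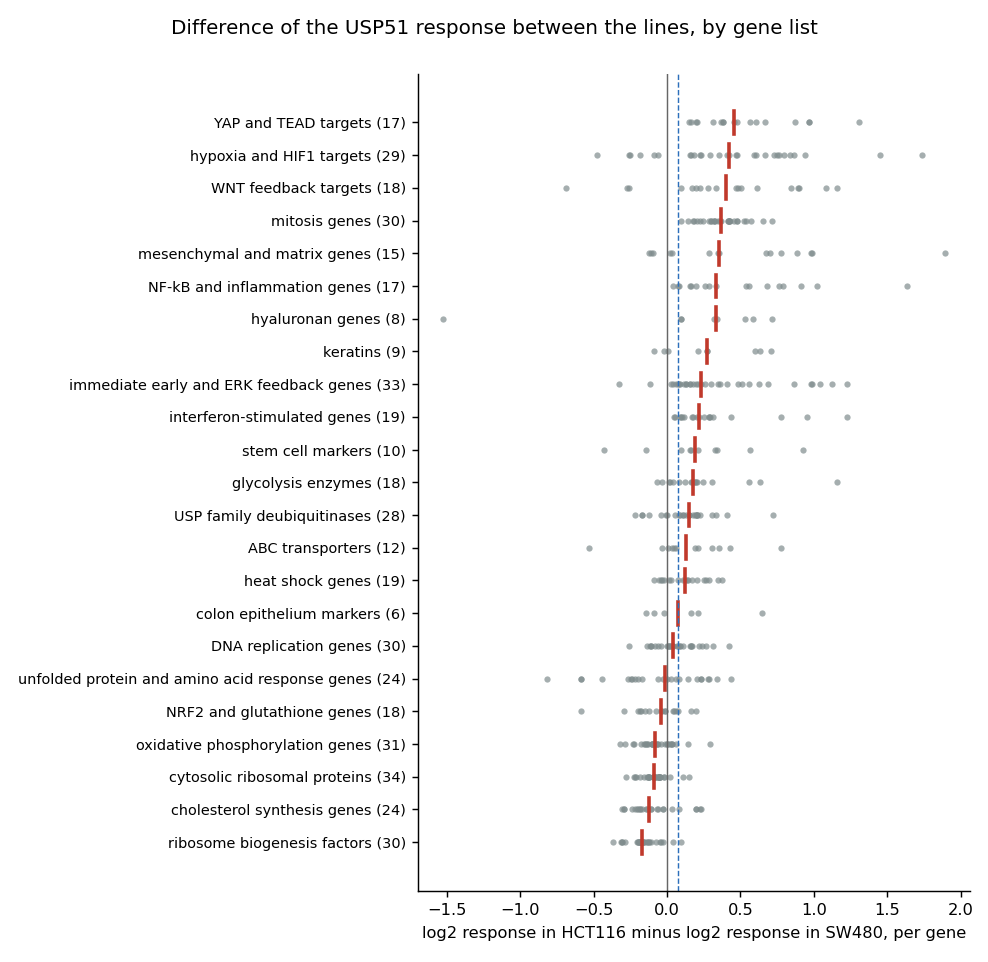
Line difference (HCT116 response minus SW480 response, log2) of each measured member of gene lists with at least 5 measured members (grey points; number measured in parentheses; USP51 not drawn), with the list's median (red bar), 0 (solid line) and the median of all genes (dashed line, 0.08). YAP and TEAD targets (0.45) and hypoxia targets (0.43) have the highest medians and ribosome biogenesis factors (-0.17) the lowest.

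Signalling targets were also displaced toward HCT116. For YAP and TEAD targets, the genes that respond to the Hippo pathway, the median response was -0.17 in SW480 and 0.30 in HCT116. All 17 measured members had a positive line difference and 6 were past 1.5-fold (3.95% over all genes). Among the 6, IGFBP3, at 0.463 and 1.46 TPM in HCT116, reached 1 TPM there only with USP51. CCN2, a matricellular protein, stood at 5.41 and 4.603 TPM in SW480 and 3.01 and 7.66 TPM in HCT116 (ratio 2.87, 1.91 to 4.34). Its relative CCN1 stood at 63.7 and 56.5 TPM against 60.5 and 106 TPM, from nearly equal controls. AMOTL2, an angiomotin family member that restrains YAP, had responses of -0.49 in SW480 and 0.48 in HCT116.

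WNT feedback targets had a median line difference of 0.40, with 15 of 18 above 0, 6 past 1.5-fold higher (3.95% over all genes) and 1 past 1.5-fold lower (0.459%). Over the 10 members with at least 10 TPM in a group of each line the median was 0.21. DKK1, a secreted WNT antagonist, stood at 8.35 and 6.64 TPM in SW480 and 94.7 and 173 TPM in HCT116, a line difference of 1.16. AXIN2, part of the complex that destroys beta-catenin, stood at 297 and 246 TPM in SW480 and 17.9 and 32.3 TPM in HCT116, a line difference of 1.08 that was 0.55 on curated transcripts alone. NOTUM and WNT11, named after their values were seen, had line differences of 0.85 and 0.89. The member past the size in the other direction was MYC, a growth-promoting transcription factor, named after its values were seen. MYC stood at 156 and 233 TPM in SW480 and 197 and 182 TPM in HCT116, a line difference of -0.69, so the list held members past 1.5-fold on both sides.

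A further list joined immediate early genes, which growth factor signals switch on within minutes, with ERK feedback genes. Of its 33 measured members 31 lay above 0, with a median of 0.23 and 8 past 1.5-fold. Of all genes, 65.0% lay above 0 and 3.95% were past 1.5-fold. EGR3 stood at 12.4 and 12.4 TPM in SW480 and 4.24 and 11.2 TPM in HCT116. NR4A1, a nuclear receptor, stood at 59.99 and 51.5 TPM against 94.6 and 178 TPM, with a ratio of count ratios of 2.06 (1.88 to 2.26). EGR2 had responses of -0.34 and 0.70, and EGR1, named after its values were seen, of -0.41 and 0.57. EGR1, EGR2 and NR4A1 thus each had a negative response in SW480 and a positive one in HCT116, while EGR3 was level in SW480.

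Inflammatory and interferon genes stood lower with USP51 mainly in SW480. All 17 measured NF-kB and inflammation genes had a positive line difference, with a median response of -0.31 in SW480 and 0.18 in HCT116, and 6 were past 1.5-fold (3.95% over all genes). IL32, a cytokine, stood at 92.3 and 65.3 TPM in SW480 and 1.14 and 3.73 TPM in HCT116, with a wide interval of 1.67 to 13.6 since its HCT116 means were under 20 counts. The neutrophil chemokine CXCL1 stood at 50.1 and 29.4 TPM against 0.953 and 1.36 TPM, and its interval, 0.859 to 6.13, spanned 1. ICAM1, an adhesion molecule named after its values were seen, stood at 97.1 and 64.9 TPM in SW480 and 8.27 and 9.75 TPM in HCT116. In HCT116 the chemokines CXCL1, CXCL2 and CXCL8 were all under 1.6 TPM. CXCL1, CXCL2 and TRAF1 reached 1 TPM in HCT116 only with USP51, so they entered through the group where they were higher. CXCL1 and CXCL2 are among the 6 past 1.5-fold. CXCL3, at 0.877 and 0.617 TPM in HCT116, was left out by the same limit. The share of positive members therefore depends in part on the limit. With at least 10 TPM required in a group of each line, 8 members were left and the median was 0.16.

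All 19 measured interferon-stimulated genes lay above 0 as well, with a median of 0.22 and 3 past 1.5-fold, where 65.0% and 3.95% of all genes were. UBE2L6, the conjugating enzyme of the ubiquitin-like protein ISG15, stood at 29.997 and 12.8 TPM in SW480 and was nearly level in HCT116, at 44.1 and 46.1 TPM. Its line difference of 1.23 (ratio 2.32, 1.81 to 2.98) therefore came from SW480. ISG15 itself was nearly level in both lines (0.03 and 0.11). Of the MHC class II genes, which present antigen, 4 were measured, too few for a list median here. All 4 were past 1.5-fold higher, where 3.95% of all genes were. HLA-DRA stood at 3.12 and 1.17 TPM in SW480 and 2.17 and 5.26 TPM in HCT116, with an interval of 2.52 to 15.7. It rested on means of 12.3 to 51 counts. HLA-DRB1, whose reads near-identical DRB copies can share, had a line difference of 1.26 from means of 9 to 62.3 counts and is uncertain.

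Matrix and adhesion genes gave a median line difference of 0.36, with 12 of 15 above 0 (65.0% over all genes) and 7 past 1.5-fold (3.95%). Among the 7, SPARC reached 1 TPM in HCT116 only with USP51. FN1, which encodes fibronectin, stood at 25.5 and 19.7 TPM in SW480 and 6.59 and 10.8 TPM in HCT116 (ratio 1.99, 1.76 to 2.26). LOXL2, a collagen cross-linking enzyme, was nearly level in SW480, at 19.5 and 18.5 TPM, and stood at 12.6 and 24.6 TPM in HCT116. The epithelial cadherin CDH1 also had a positive line difference, 0.65, from 9.4 and 7.19 TPM in SW480 and 33.4 and 41.5 TPM in HCT116. VIM, an intermediate filament of mesenchymal cells named after its values were seen, was level in SW480 at 732 and 731 TPM and low in HCT116 at 1.58 and 2.28 TPM. SPARC, FN1 and CDH1 thus lay on the same side, while EPCAM, an epithelial adhesion protein, lay at -0.14. COL1A1 and ACTA2, the 2 of 9 fibroblast markers in the table that were measured in both lines, had line differences of 0.70 and 0.59. Of the 12 blood cell markers listed there, 2 were measured in both lines, CD68 at -0.01 and the hemoglobin gene HBA1 at 1.24, whose reads its near-identical copy HBA2 can share. The pan-leukocyte marker PTPRC was at 0 TPM in 3 groups and at 0.0333 in the other, and the part of such cells in the results was not tested. In bulk RNA, fewer cells in a state and less RNA per cell cannot be told apart.

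Proliferation genes separated into mitosis and DNA replication. All 30 mitosis genes had a negative response in SW480 (median -0.32), as did 6946 of all 11333 genes. The HCT116 median was 0.04 and the median line difference 0.37. For the line difference, 30 of 30 lay above 0 (65.0% over all genes) and 2 were past 1.5-fold, a share near the 3.95% of all genes. HMMR, a spindle-associated hyaluronan receptor, stood at 66.9 and 47.6 TPM in SW480 and 47.4 and 55.9 TPM in HCT116. ECT2, which starts the cleavage furrow, stood at 82.7 and 52.1 TPM against 68.9 and 68.8 TPM (ratio 1.505, 1.395 to 1.62). TOP2A, the topoisomerase of chromosome separation, had responses of -0.43 and 0.15. The 30 DNA replication genes all had negative SW480 responses too, but their median there was -0.10 and the HCT116 median -0.05. Their line difference of 0.04 was below that of all genes and turned to -0.07 with TMM factors, where that of all genes was -0.02. RFC4, a clamp loader subunit, had the highest line difference of that list, 0.42.

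The negative side held fewer genes, and its most extreme ones, U2AF1, EIF3CL and H4C5, are uncertain, as near-identical copies or for few counts. HAS3, a hyaluronan synthase (chromosome 16, 69083484 to 69118719), stood at 5.47 TPM in SW480 controls and 8.65 with USP51, and at 109 TPM in HCT116 controls and 56.1 with USP51. Its line difference was -1.52 and its ratio of count ratios 0.308 (0.258 to 0.368). The deposited table places most HAS3 signal on predicted transcripts, where the line difference was -1.66. On curated transcripts, with at most 7.62 TPM, it was -0.57 and the SW480 response was -0.33, so the SW480 direction for HAS3 depends on the transcript models. Of the 8 hyaluronan genes measured, HAS3 was the 1 below 0 and 7 had a positive line difference, where 65.0% of all genes did. Among the 7 were CEMIP2 at 0.59 (0.27 on curated transcripts) and HMMR, which is also in the mitosis list.

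Of genes with at least 50 mean counts in a group of each line, 8 of the 12 lowest line differences lay between -0.75 and -0.93. NTSR1, the neurotensin receptor, stood at 15.3 and 22.3 TPM in SW480 and 127 and 105 TPM in HCT116 (ratio 0.535, 0.477 to 0.599). FSCN1, the actin bundler fascin, stood at 52.2 and 83.4 TPM in SW480 and was nearly level in HCT116 at 269.9 and 255 TPM. PPARG, a nuclear receptor of lipid metabolism, was nearly level in SW480, at 16.4 and 17.99 TPM, and stood at 111 and 71.7 TPM in HCT116. FSCN1 differed through SW480 and PPARG through HCT116. HSD11B2, which inactivates cortisol, stood at 5.64 and 8.64 TPM against 13.7 and 11.5 TPM. H2AC25, a histone H2A gene, and LOC102723553 had line differences of -0.76 and -0.75. For LOC102723553 the value was -1.03 on curated transcripts, and the sums with near-identical copies did not cover it. PPAN-P2RY11, a readthrough that overlaps PPAN and P2RY11, had a line difference of -0.93, which is uncertain for that overlap. H4C5, a histone H4 gene past 1.5-fold higher in SW480 and lower in HCT116, rested on means of at most 6 counts, and its interval of 0.00152 to 1.94 spanned 1.

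Beside HAS3 and MYC, the list members past 1.5-fold on the negative side were amino acid response genes. The list of unfolded protein and amino acid response genes had a median of -0.01, with 12 above and 12 below 0 and 3 past 1.5-fold lower (0.459% over all genes). These 3 were CHAC1, which degrades glutathione, TRIB3, a pseudokinase, and SLC7A11, the cystine importer, the last pair just past the size at -0.59. CHAC1 stood at 6.11 and 7.69 TPM in SW480 and 11.4 and 7.63 TPM in HCT116. TRIB3 stood at 44.5 and 65.5 TPM in SW480 and 31.8 and 30.9 TPM in HCT116, and SLC7A11 at 3.28 and 3.74 against 11.6 and 8.26. ASNS and PHGDH, enzymes that make asparagine and serine, lay at -0.44 and -0.26, whereas the chaperones of the endoplasmic reticulum HSP90B1, PDIA4, HSPA5 and CALR lay between 0.21 and 0.34. The split within the list was described after its values were seen.

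Growth and housekeeping lists lay below the median of all genes by small amounts. Over all genes, 3968 of 11333 lay below 0. Ribosome biogenesis factors had a median of -0.17, with 28 of 30 below 0, and NOP16, a nucleolar protein, stood at 186 and 199 TPM in SW480 and 161 and 133 TPM in HCT116. For cholesterol synthesis the median was -0.12 and 18 of 24 genes lay below 0, EBP and DHCR7 being lowest at -0.31 and -0.29. Cytosolic ribosomal proteins had 31 of 34 members below 0 (median -0.09), and oxidative phosphorylation genes 22 of 31 (median -0.08). In none of these 4 lists did a member pass 1.5-fold. Ribosomal protein and oxidative phosphorylation genes had short transcripts, with a median effective length of 0.662 and 0.735 kb. The shortest decile of all genes, at 0.647 kb, had a median line difference of -0.05. NRF2 and glutathione genes had a median of -0.04 and heat shock genes of 0.13, with DNAJB1, a co-chaperone, at 0.37.

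Smaller families had members on both sides. Among 12 ABC transporters the median was 0.13. ABCB1, the drug efflux pump P-glycoprotein, stood at 7.41 and 12.8 TPM in SW480 and 0.917 and 1.19 TPM in HCT116, a line difference of -0.53 whose interval of 0.445 to 1.08 spanned 1. ABCB6, a porphyrin transporter, lay on the other side at 0.77. Among stem cell markers (median 0.19), ALCAM stood at 3.35 and 1.07 TPM in SW480 and 45.8 and 41.2 TPM in HCT116, a line difference of 0.93, and KLF4 lay at -0.43. Keratins had a median of 0.27, with KRT80, KRT23 and KRT13 past 1.5-fold (3.95% over all genes; the interval of KRT13, 0.914 to 2.09, spanned 1), and of 0.01 over the 5 with at least 10 TPM in a group of each line. Of the other USP family deubiquitinases, USP13 had a line difference of 0.72 (0.37 on curated transcripts), with 14.6 and 8.79 TPM in SW480 and 12.2 and 12.6 TPM in HCT116. USP22 and USP27X, the closest relatives of USP51, lay at 0.15 and 0.11, with intervals that spanned 1.

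In 3 genes with large differences the values were near 0 once near-identical copies were summed. U2AF1, a splicing factor, had the most extreme line difference, -4.33, while its copy LOC102724594 stood at 402 and 391 TPM in SW480 and 261 and 386 TPM in HCT116. The pair summed to 403 and 399 TPM in SW480 and 432 and 432 TPM in HCT116, a line difference of 0.01. EIF3CL with EIF3C gave 0.16 in place of -2.62, and SULT1A4 with SULT1A3 gave -0.03 in place of 1.55. These 3 genes are therefore uncertain, and their line differences do not hold for the pairs.

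The line difference also followed transcript length and abundance. In the shortest decile of genes (median effective length 0.647 kb) the median line difference was -0.05, and in the longest (7.77 kb) it was 0.16. SW480 responses went from 0.01 to -0.07 and HCT116 responses from -0.03 to 0.09 over the same deciles, so the lines had opposite slopes. Across the 11333 genes Spearman's rho was 0.24 with length and -0.23 with abundance, as descriptions. By abundance, the median went from 0.15 in the lowest decile (median 2.51 TPM) to -0.02 in the highest (235 TPM), and 13, 15 and 9 of the 67 genes lay in the lowest 3 deciles. Each gene was also centred on the median of its length decile, which moved the median of all genes from 0.08 to 0. The list medians below are thus relative to 0 and not to 0.08. They were 0.37 for YAP and TEAD targets, 0.31 for hypoxia targets, 0.28 for mitosis genes, -0.07 for ribosomal proteins and -0.24 for ribosome biogenesis factors.

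**Figure D3:**
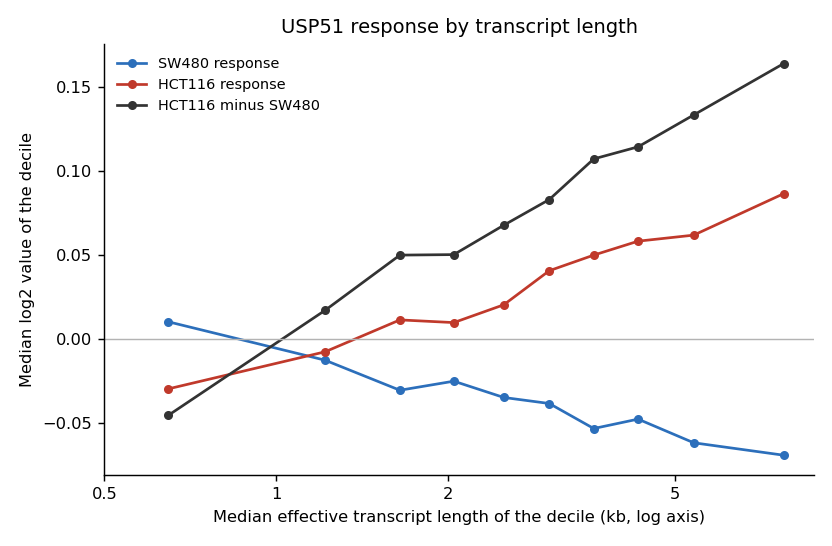
Median log2 response in SW480 (blue), in HCT116 (red) and median line difference (black) in 10 equal groups of genes by effective transcript length (x axis, kb, log axis; about 1133 genes per group). The SW480 and HCT116 curves run in opposite directions, and the line difference goes from -0.05 to 0.16.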

How the data were processed

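Total RNA of 12 libraries, 3 for each of 4 groups, was extracted with TRIzol and sequenced on a BGISEQ500, per the labels' protocols. The submitters' processing notes name TopHat, DESeq 1.32.0 and hg38 without a role. Which tool counted reads, and whether by strand, is not given in the sources used here. In all, the table has 84345 RefSeq transcripts (44726 curated, 39619 predicted, by identifier prefix) of 17818 gene identifiers. Per the file headers it holds the authors' group means in 3 units: estimated counts, not divided by depth, TPM values scaled to 1 total by the authors, and FPKM values, which the authors divided by length and depth. Means are named by line and C or E, read as control and USP51 overexpression. The 36 single-library columns carry codes that match no label and were not used, so edgeR and DESeq2 tests, which need replicates, were left out, and nothing says whether libraries came from separate cultures.

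Means were summed per gene, and the response of each line was computed as log2((TPM with USP51 + 1) / (control TPM + 1)) and the line difference as the HCT116 response minus the SW480 response, a scale that understates differences of low genes, over genes with at least 1 TPM in a group of each line. Sizes of 2-fold (1 on the log2 scale) and 1.5-fold served as calls. Exact conditional 95% intervals of the ratio of count ratios used rounded means. Symbols, available for 17672 identifiers, and coordinates came from RefSeq GRCh38.p14. Genes named were USP51; of genes with at least 50 mean counts in a group of each line the 12 highest and 12 lowest differences; genes past 1.5-fold in opposite directions; the 3 most distant members of each list with at least 5 measured; and HIF1A, VEGFA, CA9, EGLN3, CCND2 (not measured in HCT116), ABCB1, USP22 and USP27X. Other list members given with values (such as ISG15, ADM, PLIN2, GAPDH and the endoplasmic reticulum chaperones), OLFM1 and CDKN1C, and the promoters printed were chosen after values were seen. Some genes that the rule takes, and a list, are not reported here. The members and the 30 lists (648 of 663 genes in the table) were chosen with earlier results of these data known. The intervals and counts were tested on simulated data. Alternatives were other pseudocounts and filters, FPKM, CPM with no, TMM or RLE factors (edgeR 4.0.16, R 4.3.3), curated transcripts, and, added after seeing the data, centring on length and summing copies. Python 3.11.15, pandas 2.3.3 and scipy 1.17.1 were used.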

Additional observations from a re-analysis of the deposited data

How the results depend on the processing

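The number of genes with a line difference of at least 1 depended on how low values were treated. The 67 positive genes became 165 with a pseudocount of 0.1, 15 with 5, 23 with at least 10 TPM in a group of each line, 36 on FPKM and 448 at a size of 1.5-fold. The 7 negative genes became 17 with a pseudocount of 0.1, 4 with 5, 11 with no filter, 1 with at least 10 TPM, 18 on curated transcripts and 52 at 1.5-fold. With TMM factors the counts were 58 and 7, of which 46 and 4 were shared with the main ones. U2AF1, EIF3CL and SULT1A4 turned to 0.014, 0.155 and -0.0301 when summed with their copies. With TMM factors the median of all genes was -0.02, and the medians of DNA replication genes and colon epithelium markers turned to -0.07 and -0.06. The DNA replication median was also negative on FPKM (-0.03) and centred on length (-0.02), and the median of colon markers was -0.02 with at least 10 TPM and near 0 on FPKM. The medians of the other lists with at least 5 members kept their direction in every setting run on them. No paired analysis was possible because the library columns carry codes that match no label or replicate number. The columns were not assigned to groups by their values, so leaving out replicates and the planned edgeR and DESeq2 tests were not run. The spread between libraries was thus not examined, and counting error alone limits genes with few reads, such as MIA, H4C5 and CXCL1, whose intervals spanned 1.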
